A study of Mus musculus with 16 samples.

Results

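The guanylate-binding proteins (GBPs) and the immunity-related GTPases (IRGs) are 2 families of interferon-inducible GTPases, of which 10 genes were examined: Gbp2, Gbp3, Gbp4, Gbp5, Gbp6, Gbp7, Igtp, Irgm1, Irgm2 and Iigp1. A probe set was taken as a measure of a gene where that gene was its only symbol in the annotation of the array. This gave 12 probe sets of 8 genes, out of 45037 probe sets and 18193 genes with a probe set of their own. Gbp2, Gbp6, Gbp7 and Iigp1 each had 2 probe sets, and Gbp3, Igtp, Irgm1 and Irgm2 had 1 each. Gbp4 was present only on a probe set shared with Gbp8, and no probe set was assigned to Gbp5.

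The study hybridised RNA of 16 B16-OVA tumors, 1 array per tumor and 4 tumors per group. B16-OVA cells are a melanoma line of the mouse with ovalbumin as a model antigen, and they were injected under the skin of C57BL/6-Ly5.1 mice aged 6 to 12 weeks. MEKi+CD40 mice were given GDC-0623, an inhibitor of the kinase MEK, at 30 mg/kg daily, together with CD40 mIgG1, an agonist antibody against CD40, a receptor of antigen-presenting cells. CD40 mice were given the antibody with the vehicle MCT, MEKi mice were given GDC-0623 with a control antibody, and control mice were given the vehicle with control IgG. Antibodies were injected on days 3, 5 and 7 of treatment and again 1 day before the tumors were analysed, and all tumors were taken on day 18 after inoculation, so MEKi was examined at 1 dose and 1 time point. The RNA came from whole tumor tissue of 1 transplanted line, in which tumor, immune and stromal cells are mixed, and a smaller number of cells of a type cannot be told apart from less RNA per cell.

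In mice, both families are switched on mainly by interferon gamma, and in part by type I interferons. Their proteins assemble on the membranes of vacuoles that hold intracellular parasites or bacteria, and GBPs also take part in inflammasome activation. In tumors, their transcripts are commonly read as a sign of interferon gamma acting on tumor cells and on the immune cells among them.

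The genes lie in clusters. Gbp2, Gbp3, Gbp5 and Gbp7 are on chromosome 3, Gbp4 and Gbp6 on chromosome 5, and Igtp, Irgm1 and Irgm2 on chromosome 11. To show what the promoters of genes whose signals ran together have in common, the 120 bases before the annotated transcription start are given for 6 of them, from RefSeq on the GRCm38.p6 build and read in the direction of transcription. Capitals mark 2 interferon response motifs. The interferon-stimulated response element was searched as GAAANNGAAA, which reads TTTCNNTTTC on the opposite strand, and the gamma interferon activation site as TTCNNNGAA, which reads the same on both strands. The stretches are chr3:142620543-142620662 (plus strand) for Gbp2, chr3:142559924-142560043 (plus strand) for the first of the annotated starts of Gbp3, chr3:142530216-142530335 (plus strand) for Gbp7, chr11:58199436-58199555 (plus strand) for Igtp, chr11:48871421-48871540 (minus strand) for Irgm1 and chr11:58214857-58214976 (plus strand) for Irgm2.
Gbp2: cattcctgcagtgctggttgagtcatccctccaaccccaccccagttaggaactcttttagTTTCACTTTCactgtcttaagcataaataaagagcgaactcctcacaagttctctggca
Gbp3: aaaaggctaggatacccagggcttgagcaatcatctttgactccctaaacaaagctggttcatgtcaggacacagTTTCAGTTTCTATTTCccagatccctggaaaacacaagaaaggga
Gbp7: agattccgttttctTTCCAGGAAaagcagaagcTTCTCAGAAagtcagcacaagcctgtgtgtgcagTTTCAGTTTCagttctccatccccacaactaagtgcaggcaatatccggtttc
Igtp: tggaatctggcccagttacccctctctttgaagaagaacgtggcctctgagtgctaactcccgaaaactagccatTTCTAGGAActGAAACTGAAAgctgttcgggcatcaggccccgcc
Irgm1: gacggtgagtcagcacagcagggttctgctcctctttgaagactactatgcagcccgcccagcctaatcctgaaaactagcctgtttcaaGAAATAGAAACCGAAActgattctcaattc
Irgm2: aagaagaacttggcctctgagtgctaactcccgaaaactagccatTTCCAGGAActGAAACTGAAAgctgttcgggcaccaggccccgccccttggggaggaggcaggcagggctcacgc

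Of the 10 genes, 7 had an entry in the promoter table, which covers 250 bases before to 50 bases after the start. All 7 genes held the response element in at least 1 of their windows. Counted by window, 7 of their 8 windows held it, against 3.44% of the 32851 promoter windows in the table. Only stretches that hold a motif were printed above. In the 120 bases before the start, 6 of the 7 genes held it in a window, against 1.22% of all windows. The activation site was found in 4 of the 7 genes (Gbp5, Gbp7, Igtp and Irgm2) and in 4 of the 8 windows, against 8.30% of all windows. In Gbp3 and Irgm1, 2 copies of the response element overlap, so their capitals run on. In Igtp and Irgm2 the activation site and the response element follow each other, and these 2 promoters share an uninterrupted run of 38 bases, while no other pair of the printed stretches shares more than 13. A match describes the letters of the window and does not show that a factor binds there.

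The 8 measured genes followed 1 pattern. The group means ran CD40, MEKi+CD40, control and MEKi from high to low in 11 of the 12 probe sets, the exception being the dimmer probe set of Gbp7 (1425156_at), whose control mean lay above that of MEKi+CD40. Signals are log2 values after robust multichip averaging (RMA), and a difference of 1 is a doubling of signal. Signals of different probe sets are not compared, since probes differ in brightness. The level taken as background was 4.94, below which lay the mean signals of 95% of 44 probe sets for olfactory receptors.

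Among the GBPs of chromosome 3, Gbp2, which is recruited to the vacuoles of parasites, was read with its brighter probe set (1435906_x_at). Its log2 signals were 13.15, 12.63, 12.56 and 10.27 in MEKi+CD40 tumors 1 to 4, 12.74, 13.61, 13.41 and 12.36 in CD40 tumors, 10.40, 7.18, 6.19 and 9.45 in MEKi tumors and 10.75, 10.91, 12.93 and 12.16 in control tumors. All MEKi tumors lay below all control tumors, and MEKi tumors 2 and 3 were far below the other 2. MEKi+CD40 tumor 4, the lowest of its group, lay just below MEKi tumor 1. The letter x in the name of this probe set marks probes that may also bind related transcripts, and the other probe set of Gbp2 (1418240_at) gave a correlation of 0.998 with it over the 16 tumors.

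Gbp3 (1418392_a_at) had log2 signals of 11.59, 10.62, 10.78 and 8.53 in MEKi+CD40 tumors, 11.09, 11.90, 11.77 and 10.87 in CD40 tumors, 8.43, 6.01, 6.56 and 7.89 in MEKi tumors and 9.07, 9.03, 11.02 and 10.51 in control tumors. Here 3 of the 4 CD40 tumors exceeded every control tumor, and all MEKi+CD40 tumors exceeded all MEKi tumors. Gbp7, which in mice has been linked to assembly of the oxidase on phagosomes, averaged 11.3 ± 0.85 in MEKi+CD40, 12.2 ± 0.49 in CD40, 8.18 ± 1.99 in MEKi and 11.2 ± 0.73 in control tumors (1434380_at, SD, n = 4 each). The spread in MEKi tumors was more than that in any other group.

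Gbp6, of the chromosome 5 cluster, spanned the widest range (1447927_at). Its log2 signals were 13.03, 12.43, 12.25 and 9.61 in MEKi+CD40 tumors, 12.40, 13.19, 12.79 and 11.70 in CD40 tumors, 9.02, 5.74, 4.83 and 8.45 in MEKi tumors and 9.62, 10.11, 12.49 and 11.38 in control tumors. MEKi tumor 3 was below the background level, which it reached for no other gene on its brighter probe set. On the second probe set of Gbp6 (1438676_at), MEKi tumors 2 and 3 gave 3.74 and 3.11, both below background. The probe set that Gbp4 shares with Gbp8 averaged 5.86, 5.73, 5.72 and 5.76 in MEKi+CD40, CD40, MEKi and control tumors (SDs of 0.08 to 0.17). Its group means were thus close beside the spread. The probe set of Gbp8 alone averaged 8.40 in MEKi+CD40, 9.48 in CD40, 4.33 in MEKi and 7.545 in control tumors. The shared probe set did not follow these means, so whether Gbp4 had the pattern could not be read from it.

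Igtp, also named Irgm3, Irgm1 and Irgm2 are the regulatory IRGs, which sit on the cell's own membranes and restrain the others. Igtp (1417141_at) had log2 signals of 13.41, 12.98, 12.51 and 10.95 in MEKi+CD40 tumors, 13.02, 13.67, 13.46 and 12.50 in CD40 tumors, 10.75, 8.04, 6.83 and 10.24 in MEKi tumors and 11.32, 11.46, 13.25 and 12.60 in control tumors. Irgm1 (1418825_at) had 12.02, 12.01, 11.61 and 10.47 in MEKi+CD40 tumors, 12.08, 13.01, 12.37 and 11.62 in CD40 tumors, 10.34, 8.17, 7.41 and 9.80 in MEKi tumors and 10.87, 10.93, 12.38 and 11.65 in control tumors. For both genes the MEKi tumors lay below every tumor of the other 3 groups. Irgm2 (1417793_at) averaged 10.3 ± 0.85 in MEKi+CD40, 10.9 ± 0.61 in CD40, 7.08 ± 1.44 in MEKi and 9.91 ± 0.86 in control tumors (SD, n = 4 each), with no overlap between MEKi and any other group.

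Iigp1, also named Irga6 and located on chromosome 18, is an effector IRG that loads onto the vacuole of the parasite Toxoplasma gondii. Its log2 signals were 12.70, 12.33, 11.90 and 9.98 in MEKi+CD40 tumors, 12.32, 13.07, 12.81 and 11.93 in CD40 tumors, 10.30, 6.81, 6.35 and 9.29 in MEKi tumors and 10.80, 10.88, 12.69 and 12.14 in control tumors (1419043_a_at). As with Gbp2, MEKi+CD40 tumor 4 lay just below MEKi tumor 1, and the MEKi and control tumors did not overlap.

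**Figure D1:**
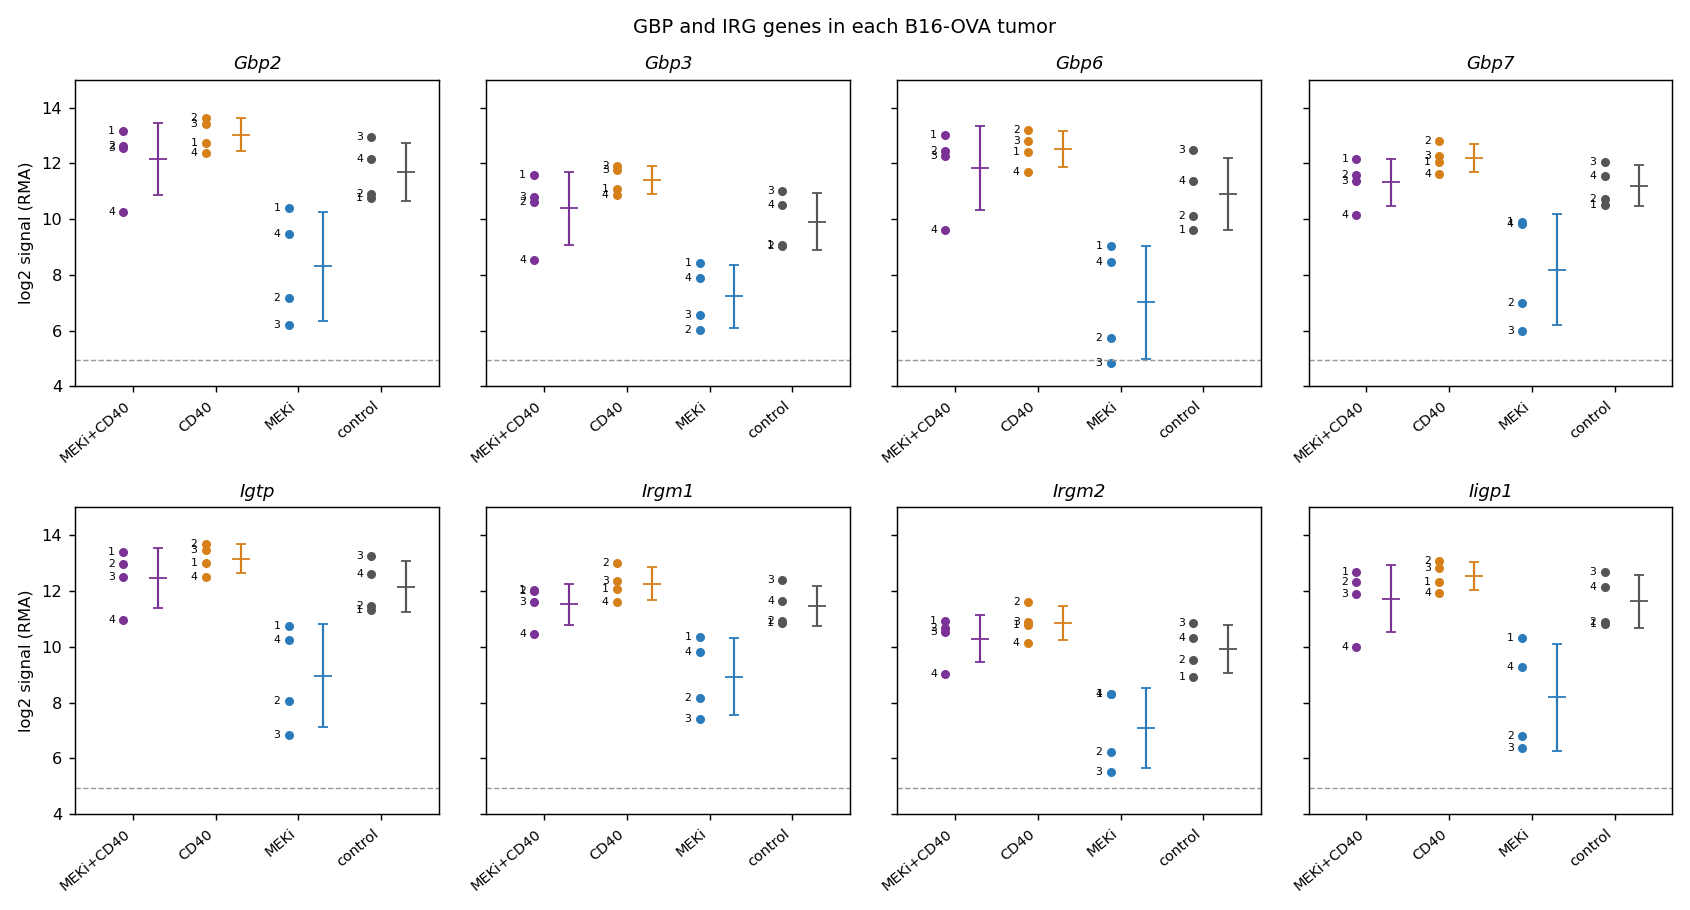
Log2 signal (RMA, y axis) of the brightest probe set of each measured gene in the 4 tumors of each group (x axis). Points are tumors with their numbers, horizontal marks with bars are means ± SD, and the dashed line is the background level of 4.94. The MEKi tumors lie below all control tumors in each of the 8 panels, and MEKi+CD40 tumor 4 is the lowest of its group in each.

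The genes also shared the order of tumors inside each group. MEKi+CD40 tumor 1 was the highest and tumor 4 the lowest of that group for 8 of 8 genes. The order of the CD40 tumors was 2, 3, 1, 4 for 8 of 8 genes, that of the MEKi tumors was 1, 4, 2, 3 for 6 of 8, and that of the control tumors was 3, 4, 2, 1 for 7 of 8. Pearson correlations between pairs of genes over the 16 tumors were 0.950 to 0.997 (28 pairs, median 0.990), and after the group means were subtracted they were 0.846 to 0.993 (median 0.974). These values share arrays and group differences and are given as a description. The 2 probe sets of Gbp2, Gbp6, Gbp7 and Iigp1 correlated at 0.991 to 0.998. The groups differed in spread: over the 8 genes the SD was 0.73 to 1.52 in MEKi+CD40, 0.49 to 0.63 in CD40, 1.13 to 2.04 in MEKi and 0.71 to 1.29 in control tumors.

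MEKi against control asks what the inhibitor alone does. All 8 genes had a lower mean in MEKi tumors, by 2.53 (Irgm1) to 3.89 (Gbp6) log2 units. Gbp6 averaged 7.01 in MEKi and 10.9 in control tumors (difference −3.89, SE 0.97, 95% interval −6.08 to −1.71). Iigp1 was 10.9-fold lower (−3.44, SE 0.86), Gbp2 10.4-fold lower (−3.38, SE 0.89) and Igtp 9.14-fold lower (−3.19, SE 0.83). Of the 18193 genes ordered by this difference, Gbp6 was the lowest, and all 8 genes were among the lowest 20. Their 12 probe sets had a median difference of −3.24, against 0.01 for all probe sets.

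None of these differences passed the test. Adjusted p was 0.570 to 0.597 over the 12 probe sets (limma with Benjamini-Hochberg adjustment over 45037 probe sets), and unadjusted p was under 0.05 for 12 of 12. In this comparison 0% of all probe sets were called at an adjusted p under 0.05, while 1613 had a higher and 1497 a lower mean in MEKi tumors at an unadjusted p under 0.05. The MEKi tumors lay wholly below the control tumors in 12 of 12 probe sets, against 1.68% of all probe sets. Without MEKi tumor 3 the difference of Gbp6 was −3.16 and that of Irgm1 −2.02, and all 8 genes were still lower in MEKi tumors.

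CD40 against control asks what the agonist antibody alone does. All 8 genes had a higher mean in CD40 tumors, by 0.81 (Irgm1) to 1.62 (Gbp6) log2 units, with Gbp3 at 11.4 in CD40 against 9.91 in control tumors (difference 1.50, SE 0.46, 95% interval 0.46 to 2.54). Gbp2 differed by 1.34 (SE 0.49) and Igtp by 1.01 (SE 0.43). No gene was called, with adjusted p of 0.532 to 0.609 in limma. As background, 0% of all probe sets were called, 1501 were higher and 2356 lower at an unadjusted p under 0.05, and 8 of the 12 probe sets were higher at that level. Control tumor 3 lay between the lowest and the highest CD40 tumor in each of the 12 probe sets, so the groups overlapped in all of them. Of all probe sets, 1.49% had no overlap with CD40 higher. The median over the 12 was 1.10, against −0.03 over all probe sets.

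MEKi+CD40 against control gave no difference that could be told from the spread. The 8 genes differed by 0.07 (Irgm1, 11.53 in MEKi+CD40 against 11.46 in control tumors, 95% interval −0.92 to 1.06) to 0.93 (Gbp6, 11.8 against 10.9, 95% interval −0.995 to 2.85). Their adjusted p was 0.569 to 0.947 in limma, and 0.00888% of all probe sets were called. At an unadjusted p under 0.05 none of the 12 probe sets was past the threshold, while 3873 of all probe sets were higher and 5686 lower. No probe set of the 12 separated the groups, against 5.41% of all probe sets with MEKi+CD40 higher. Without the 3 tumors that held skeletal muscle transcripts, 2 of which are MEKi+CD40 tumors 1 and 3, the sign turned for 7 of 8 genes, with Iigp1 at −0.47. This left MEKi+CD40 tumors 2 and 4, of which tumor 4 was the lowest of its group for all 8 genes. The 95% intervals reached beyond 1 log2 unit in both directions for 4 of the 8 genes (Gbp2, Gbp3, Igtp and Iigp1).

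MEKi+CD40 against MEKi asks what the antibody adds to the inhibitor. All 8 genes had a higher mean in MEKi+CD40 tumors, by 2.60 (Irgm1) to 4.82 (Gbp6) log2 units. Gbp6 was 28.2-fold higher, at 11.8 in MEKi+CD40 against 7.01 in MEKi tumors (SE 1.08, 95% interval 2.35 to 7.29), and this was the largest difference of the 18193 genes. Gbp2 was 14.4-fold higher (3.85, SE 0.99), Iigp1 11.6-fold (3.54, SE 0.96), Igtp 11.3-fold (3.50, SE 0.91) and Irgm2 9.29-fold (3.22, SE 0.71). The 12 probe sets had a median difference of 3.52, against −0.02 for all probe sets.

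The call changed with the fit, with the probe sets tested and with the tumors used. Fitted on the 8 tumors of this comparison, the adjusted p was 0.0586 (Irgm2) to 0.101 (Gbp7) in limma, so none of the 8 genes was called, and 1.15% of all probe sets were called. At an unadjusted p under 0.05, 12 of 12 probe sets were higher in MEKi+CD40 tumors, and of all 45037 probe sets 3829 were higher and 5318 lower. With all 16 tumors in 1 limma fit, the groups share 1 estimate of the spread. There the adjusted p of the 8 genes was 0.00752 to 0.0167 and 8 of 8 passed. Many more of all probe sets were called in that fit as well, with the count given in the closing section. Restricted to probe sets above background, 3 passed (Irgm2, Gbp3 and Gbp6), and without MEKi+CD40 tumor 4 only Gbp3 passed (3.77, adjusted p = 0.0442). The groups did not overlap in 8 of 12 probe sets, against 5.22% of all probe sets, and in the 4 others (both probe sets of Gbp2 and of Iigp1) MEKi+CD40 tumor 4 lay below MEKi tumor 1.

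MEKi+CD40 against CD40 asks what the inhibitor does where the antibody is present. All 8 genes had a lower mean in MEKi+CD40 tumors, by 0.56 (Irgm2) to 1.03 (Gbp3) log2 units, with adjusted p of 0.285 to 0.626 in limma and 95% intervals that included 0 for all 8. Across all probe sets 4.74% were called, and 6.75% separated the groups with MEKi+CD40 lower, while none of the 12 probe sets did either. The dimmer probe set of Gbp7 was the only one of the 12 with an unadjusted p under 0.05 (−1.13, SE 0.42, adjusted p = 0.161), while 4847 of all probe sets were higher and 4766 lower at that level. Without MEKi+CD40 tumor 4 the median over the 8 genes was −0.24, against −0.77 with it, and Gbp6 was at 0.05. Without the tumors with muscle transcripts, which left MEKi+CD40 tumors 2 and 4, the median was −1.29 and Gbp3 was at −1.71.

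**Figure D2:**
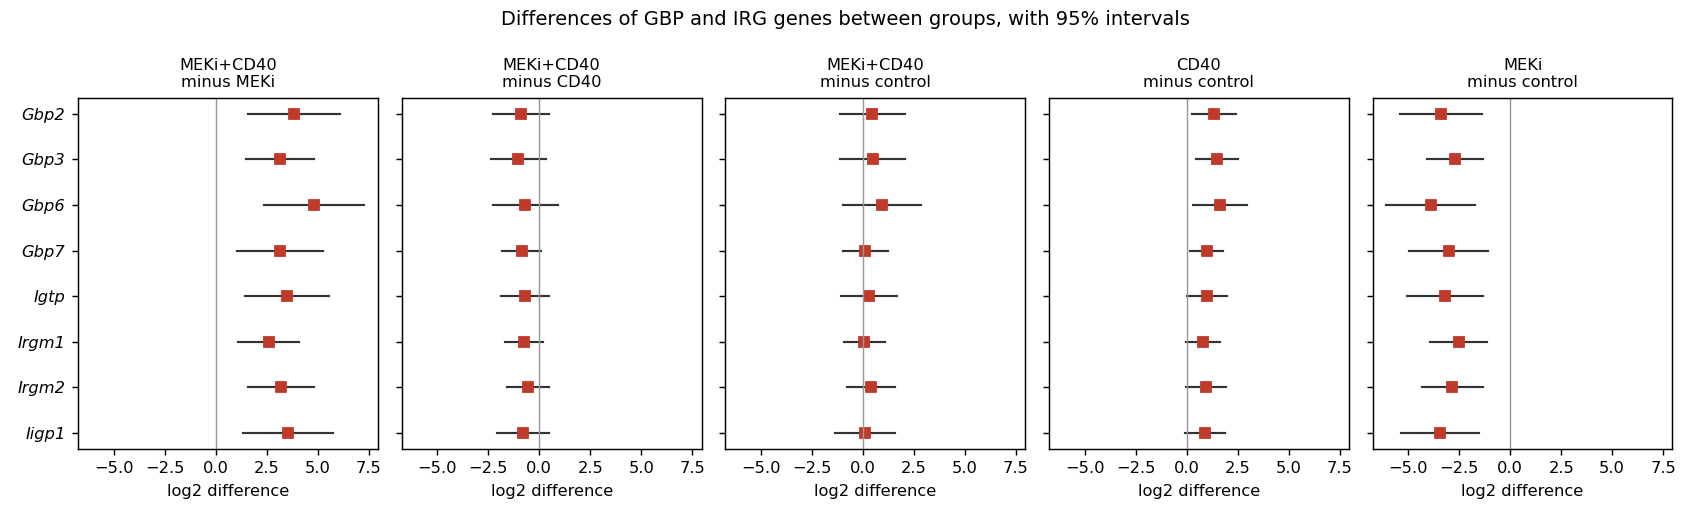
Difference in log2 signal (x axis) of the brightest probe set of each gene (y axis) in 5 comparisons, with squares at the estimate and lines for the 95% interval of the limma fit on the 8 tumors of each comparison. The intervals lie wholly above 0 for MEKi+CD40 minus MEKi and wholly below 0 for MEKi minus control, and include 0 for MEKi+CD40 minus CD40 and minus control.

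The interaction, which is the difference MEKi+CD40 minus MEKi less the difference CD40 minus control, tested whether the antibody moved these genes by another amount in the presence of the inhibitor. It was positive for all 8 genes, between 1.66 (Gbp3, SE 0.93, 95% interval −0.34 to 3.65) and 3.20 (Gbp6, SE 1.32, 95% interval 0.38 to 6.02). Adjusted p was 0.249 to 0.462 in limma, and 0% of all probe sets were called, with 3072 positive and 3352 negative at an unadjusted p under 0.05. At that level 6 of the 12 probe sets passed. The 2 antibody differences were thus not shown to differ in size, and the 5 comparisons above and the interaction share tumors with each other.

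Among the other members of the 2 families, Gbp2b, Gbp8, Ifi47 and Gm4951 had differences of the same sign as the 8 genes in MEKi+CD40 against MEKi, CD40 against control and MEKi against control, while Irgq and Irgc1 did not share the pattern. Of 13 such genes 6 were measured, of which 5 had a positive difference in MEKi+CD40 against MEKi and 5 a negative one in MEKi against control. Their medians were 2.52 for MEKi+CD40 against MEKi, 1.10 for CD40 against control and −2.34 for MEKi against control. Gbp8 differed by 4.07 between MEKi+CD40 and MEKi (8.40 against 4.33, the MEKi mean being below background, adjusted p = 0.0632), the IRG gene Gm4951 by 3.55 (adjusted p = 0.0765) and Ifi47, an IRG of the effector type, by 3.20 (adjusted p = 0.112). Irgq, a quasi-IRG, was the 1 gene of the 6 that was called, at 0.55 higher in MEKi+CD40 than in MEKi tumors (adjusted p = 0.0496) and 0.84 higher than in CD40 tumors (adjusted p = 0.0249). Across all probe sets 1.15% and 4.74% were called in these 2 comparisons. In CD40 against control, where the 8 genes had higher means, Irgq differed by −0.38 (8.15 in CD40 against 8.52 in control tumors, adjusted p = 0.532) with no overlap between the groups. Irgc1, a testis gene in mice, differed by −0.0025 to 0.075 in the 5 comparisons.

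Of the 13 genes of interferon gamma reception and its transcription factors, 12 were measured. In MEKi+CD40 against MEKi, 10 had a positive and 2 a negative difference, with a median of 0.72. Irf9, a subunit of the factor that type I interferons activate, was the only one called and rose by 1.18 (8.37 in MEKi+CD40 against 7.19 in MEKi tumors, SE 0.19, adjusted p = 0.0496). Across all probe sets 1.15% were called in this comparison. Irf1, a transcription factor that interferon gamma induces, differed by 2.18 (10.8 against 8.61, adjusted p = 0.0991), Jak2, a kinase of the receptor, by 0.65 (adjusted p = 0.0551) and Socs1, an inhibitor of the receptor's signal, by 0.55 (adjusted p = 0.103). Ifng itself averaged 5.34 in MEKi+CD40, 6.73 in CD40, 4.16 in MEKi and 5.03 in control tumors. Its MEKi mean lay below background and its control mean close to it, so differences from MEKi tumors have no exact size, and it was called in none of the comparisons. Between MEKi+CD40 and control tumors, Jak2 differed by 0.45 (adjusted p = 0.123) and Jak1, the other kinase of the receptor, by 0.34 (adjusted p = 0.235). None of the 12 was called in MEKi against control, where 11 of 12 differences were negative, or in CD40 against control, where 12 of 12 were positive.

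Type I interferon stimulated genes, of which 18 of 20 were measured, held the most calls. In MEKi+CD40 against MEKi 7 of 18 rose and none fell, and the median was 1.89. The RNA sensor Ddx58 rose by 1.48, the deconjugating enzyme Usp18 by 3.20, the chaperone Rtp4 by 2.80 and the antiviral enzyme Rsad2 by 2.16 (adjusted p = 0.0496 each, with no overlap between the groups). In the comparisons with control none was called, and the medians were 0.74 for MEKi+CD40, 0.90 for CD40 and −1.24 for MEKi. In MEKi+CD40 against control, Usp18 differed by 1.31 (adjusted p = 0.236), Oas2, a sensor of double-stranded RNA, by 0.99 (adjusted p = 0.237) and the antiviral GTPase gene Mx2 by 0.72 (adjusted p = 0.116). The 7 calls stand among 518 of all probe sets, and no probe set at all was called when MEKi tumor 1, 2 or 3 or MEKi+CD40 tumor 3 was left out. The calls of Irgq and Irf9 in MEKi+CD40 against MEKi belong to the same 518.

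Partners that act with GBPs and IRGs, such as the conjugation system of autophagy that guides them and the inflammasome proteins downstream, were measured for 18 of 19 genes. None was called in MEKi+CD40 against MEKi, where 16 of 18 differences were positive and the median was 0.28. Map1lc3b, which encodes a form of the autophagosome protein LC3, differed by 0.45 in that comparison (adjusted p = 0.0574) and by 0.48 in MEKi+CD40 against control (adjusted p = 0.0526), with no overlap between the groups in either. In MEKi+CD40 against MEKi the inflammatory caspase Casp1 differed by 1.78 (adjusted p = 0.102), the pore-forming protein Gsdmd by 1.08 (adjusted p = 0.0948) and Rnf213, a ubiquitin ligase, by 1.07 (adjusted p = 0.103). Map1lc3a, which encodes another form of LC3, differed by 0.71 in MEKi+CD40 against control (adjusted p = 0.0560). Map1lc3a and Map1lc3b rose by 0.77 and 0.67 in MEKi+CD40 against CD40 (adjusted p = 0.0379 and 0.0229), the only 2 of the 18 called there. Across all probe sets 4.74% were called in that comparison. Of the 18 differences in MEKi+CD40 against CD40, 9 were positive and 9 negative, with a median of 0.005. Casp1 was at −1.25 (adjusted p = 0.244) and Gsdmd at −0.91 (adjusted p = 0.297). In this last comparison the 8 GBP and IRG genes had lower means in MEKi+CD40 tumors. Between MEKi and control tumors, 12 of the 18 partner differences were negative and 6 positive, and none was called. There 4 of the 18 separated the groups with MEKi lower, against 1.68% of all probe sets, among them Casp1 (−1.655) and Casp4 (−1.21).

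**Figure D3:**
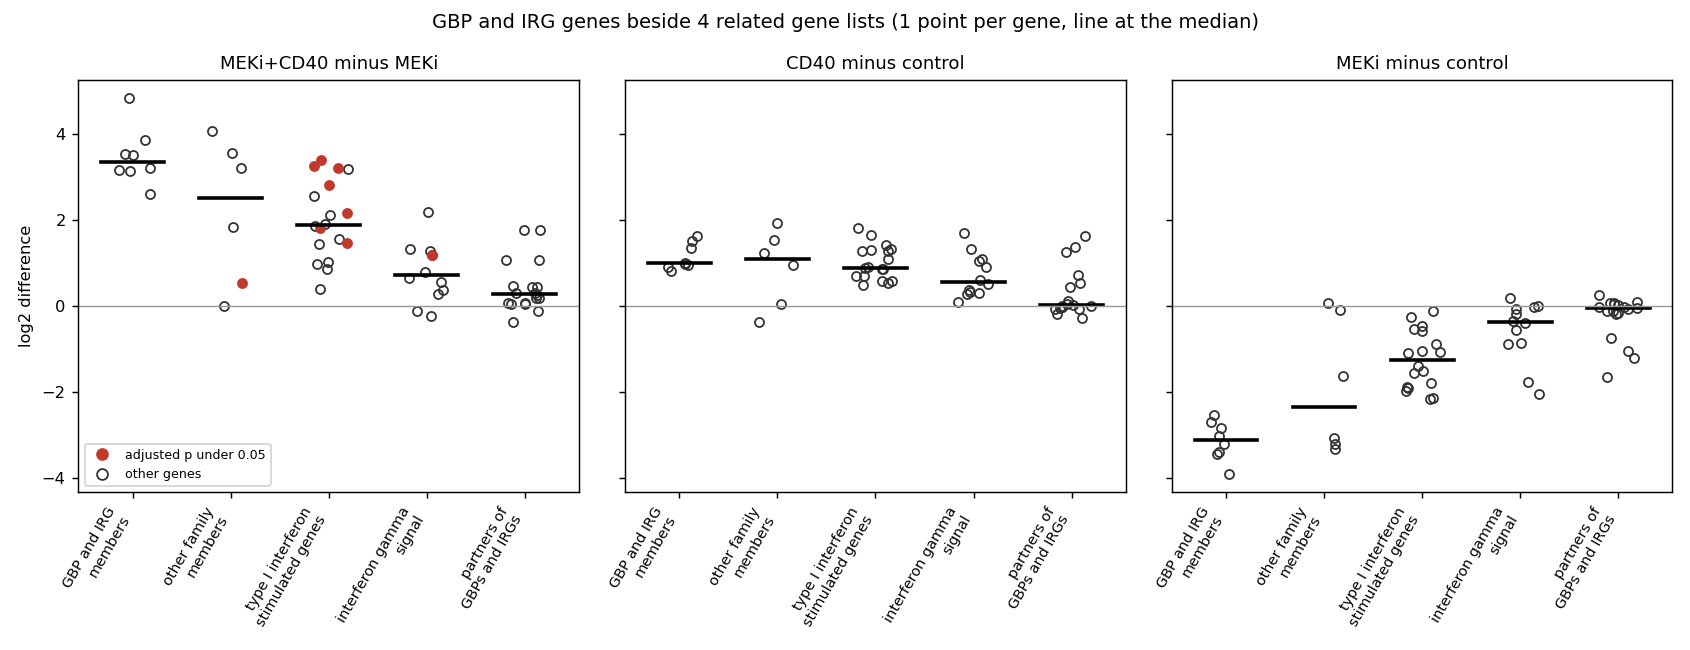
Difference in log2 signal (y axis) of each measured gene of 5 gene lists (x axis) in 3 comparisons, 1 point per gene, with filled points for an adjusted p under 0.05 and lines at the median. For MEKi minus control the median of the 8 GBP and IRG genes is −3.11, that of the type I interferon stimulated genes −1.24 and that of the partners −0.05. The partners run from −1.655 (Casp1) to 0.255 (Map1lc3a) in that panel.

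The genes whose signal was most like the mean of the 8 over the 16 tumors, by Pearson correlation, were Tap2 (0.992), Tap1 (0.988), Ifi47 (0.988), Psmb9 (0.985) and Nlrc5 (0.983). Tap1 and Tap2 form the transporter that carries peptides to MHC class I, Psmb9 is a subunit of the immunoproteasome and Nlrc5 is a transactivator of MHC class I genes. Psmb9 averaged 10.86 in MEKi+CD40, 12.02 in CD40, 7.41 in MEKi and 11.05 in control tumors, and Tap1 averaged 9.85, 10.9, 7.17 and 9.86 in the same groups.

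Marker transcripts of leukocytes varied with the 8 genes, and their part in the result was not tested. The mean log2 signal of 10 pan-leukocyte markers was 7.66 to 10.4 in MEKi+CD40, 9.18 to 11.1 in CD40, 6.45 to 8.47 in MEKi and 7.93 to 9.57 in control tumors, with all 10 above background in each group. That of 10 macrophage markers was 6.91 to 10.7, 8.93 to 11.2, 5.62 to 8.51 and 7.10 to 9.38 in the same order, with Itgam below background in MEKi tumors. That of 10 T cell markers, of 12 listed, was 5.17 to 6.19, 5.56 to 6.98, 4.98 to 5.15 and 5.13 to 6.07, with Cd3g, Cd8b1, Cd2 and Cd5 below background in MEKi tumors. Of the 5 measured NK cell markers, 3 to 4 were below background in each group. Over the 16 tumors the correlation with the mean of the 8 genes was 0.79 for pan-leukocyte, 0.77 for T cell, 0.73 for macrophage and 0.71 for NK cell markers. For endothelial, skeletal muscle, fibroblast and melanocyte markers it was 0.34, 0.29, −0.03 and −0.17. These values are a description of tumors that share groups.

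One tumor departed from this. MEKi tumor 3 had the lowest mean of the 8 genes, −4.90 relative to the control mean, while its pan-leukocyte mean of 8.47 and its macrophage mean of 8.51 lay inside the control range. MEKi tumor 1, with a lower pan-leukocyte mean of 7.73 and a lower macrophage mean of 7.15, was at −1.43. The T cell mean of MEKi tumor 3, 4.98, was the lowest of the 16 tumors, but close to the other MEKi tumors (5.06 to 5.145) and to the background level of 4.94. Its mean of 8 fibroblast markers, 10.7, was above those of the other MEKi tumors (7.48 to 8.43) and of the control tumors (7.69 to 8.25), and its mean of 8 endothelial markers, 5.86, was the lowest of the 16. The part of these cells in the result was not tested. MEKi+CD40 tumor 4, at −1.23, had a pan-leukocyte mean of 7.66, below every control tumor. The melanocyte markers, which mark the line, were at 13.4 to 13.8 in all 16 tumors. Skeletal muscle markers were at 12.02 and 9.31 in MEKi+CD40 tumors 1 and 3 and at 7.81 in CD40 tumor 3, against 4.46 to 5.58 in the other tumors. For MEKi+CD40 against MEKi the median over the 8 genes was 2.87 without the tumors with muscle transcripts, against 3.36 with them, and all 8 stayed positive. Only MEKi+CD40 tumors 2 and 4 were then left in that group.

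**Figure D4:**
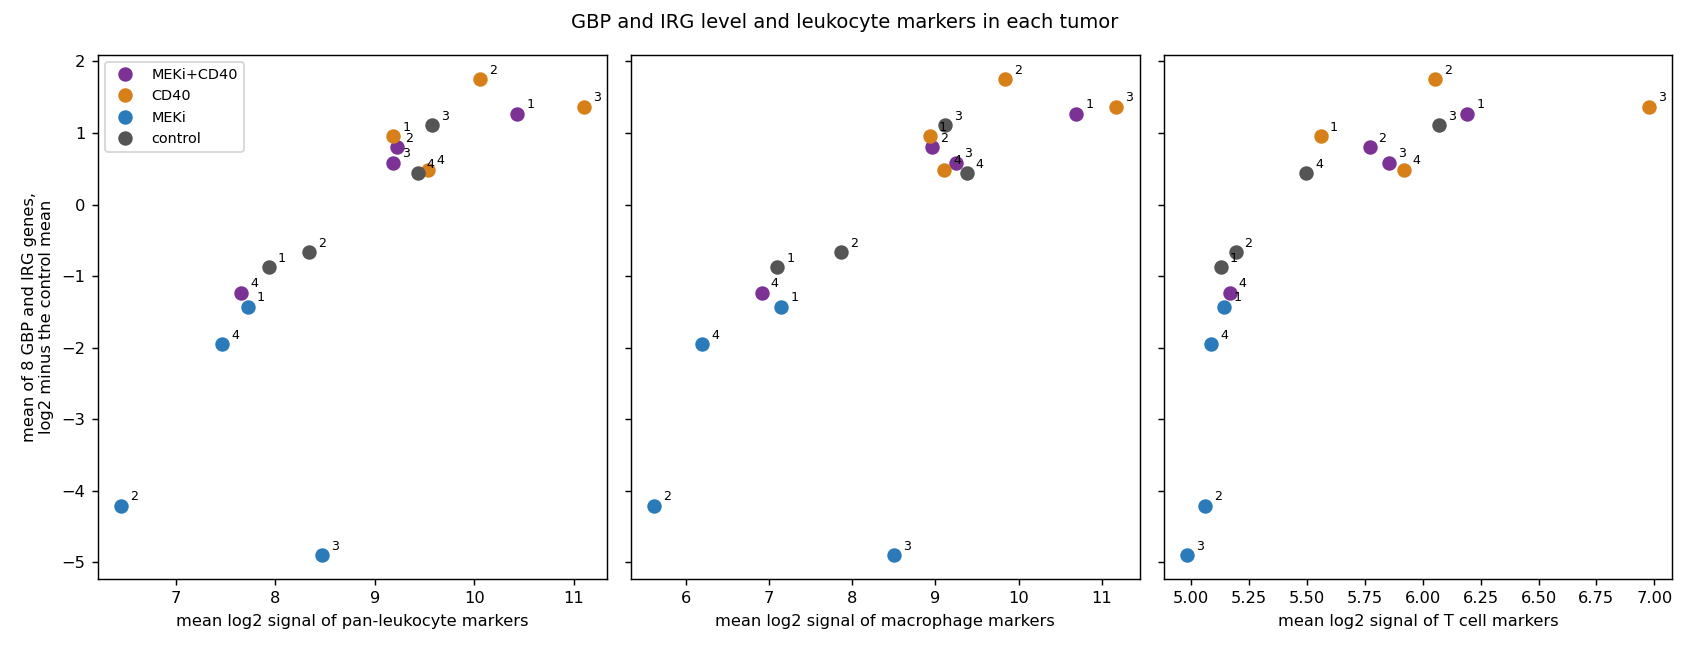
Mean of the 8 GBP and IRG genes in each tumor, in log2 units relative to the control mean (y axis), against the mean log2 signal of pan-leukocyte, macrophage and T cell markers (x axis), with tumors coloured by group and numbered. MEKi tumor 3 lies at −4.90 with a pan-leukocyte mean of 8.47, inside the control range of 7.93 to 9.57.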

How the data were processed

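RNA of 16 tumors was hybridised to Affymetrix mouse expression arrays after 3′ IVT labelling. The deposited log2 values were made by the authors in Chipster by robust multichip averaging (RMA, version not given in the sources used here). They were used as deposited, with no tumor left out. After removal of 64 Affymetrix controls, 45037 probe sets were tested, of which 34945 had 1 gene symbol, 932 several and 9160 none. The brightest probe set stood for a gene where 1 value was needed. Tests used limma 3.58.1 (R 4.3.3, lmFit followed by eBayes). For 2 groups only their 8 tumors entered the fit, and for the interaction all 16, with Benjamini-Hochberg adjustment over all 45037 and a threshold of 0.05. The fits were tested on simulated data. Separate mice stand behind each array, and their number limits the precision. The background level lay above 39.7% of probe sets.

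The genes and lists were chosen with earlier results of these data known. All probe sets of the 10 genes were reported. From each list up to 4 genes were picked by smallest p in MEKi+CD40 against control and against MEKi, of which the text names a part, and with them the 5 genes most correlated with the 8. Ifng, Gbp2b and the values of Irgc1, Irgq and LC3 genes in other comparisons were chosen after their values were seen. The alternatives were all tumors in 1 fit, the replicate number as a block, a filter on dim probe sets, array weights, cyclic loess, a trended and robust eBayes, median centring, the mean of a gene's probe sets, and leaving out single tumors or the 3 with muscle transcripts. Summaries used pandas 2.3.3 and numpy 2.4.6 under Python 3.11.15, and plots matplotlib 3.10.9.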

Additional observations from a re-analysis of the deposited data

How the results depend on the processing

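MEKi against control, CD40 against control and the interaction kept the direction of all 8 genes and no call under every alternative run, and MEKi+CD40 against MEKi kept the direction of all 8. In the last, 8 of 8 genes were called with all 16 tumors in 1 fit, 3 with only probe sets above background and 0 to 1 with single tumors left out, against 0 as reported. The joint fit called 4699 of all 45037 probe sets there, against 518 as reported. The filter tests fewer probe sets. The joint fit uses more tumors and gives all groups 1 estimate of the spread. Over the 8 genes the SD was 1.13 to 2.04 in MEKi and 0.73 to 1.52 in MEKi+CD40 tumors. It was 0.49 to 0.63 in CD40 and 0.71 to 1.29 in control tumors. The part of these unlike spreads in the calls was not tested. In MEKi+CD40 against control, array weights gave −0.091 for Igtp, −0.0144 for Gbp3, −0.19 for Irgm1, −0.31 for Iigp1 and −0.22 for Gbp7. Without the tumors with muscle transcripts, which left MEKi+CD40 tumors 2 and 4, it was −0.19 for Igtp, −0.053 for Irgm2, −0.33 for Gbp3, −0.22 for Irgm1, −0.47 for Iigp1, −0.33 for Gbp7 and −0.24 for Gbp2. With single tumors left out it ran over −0.011 to 0.81 for Igtp, −0.13 to 0.42 for Irgm1, −0.22 to 0.68 for Iigp1 and −0.17 to 0.51 for Gbp7, with the sign turned without MEKi+CD40 tumor 1 for all 4, without control tumor 1 or 2 for the last 3, and without MEKi+CD40 tumor 2 for Irgm1 and Iigp1. In MEKi+CD40 against CD40, Gbp6 ran over −1.09 to 0.05, positive only without MEKi+CD40 tumor 4. The cause was not tested. The replicate numbers do not pair the tumors: over 24 same-numbered pairs the correlation of deviations was −0.52 to 0.47, and with the replicate block 0 of 8 genes and 0 probe sets in all were called in each comparison. Counts over all probe sets moved with the fit, to 4699 in MEKi+CD40 against MEKi (518 as reported), 4904 in MEKi+CD40 against control (4) and 5309 in MEKi+CD40 against CD40 (2133) with all 16 tumors. Signal near background limits Gbp6 in MEKi tumors.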
